A study of Avicennia germinans with 18 samples.

Results

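Stems were compared with roots inside the same seedlings of Avicennia germinans, the black mangrove, from a forest that the labels call humid. All 3 stem libraries and all 3 root libraries of that forest were used, 6 of the 18 libraries in the series, and stem and root were paired by the seedling number. The seedlings were wild plants of 1 site, raised in the field and harvested after 72 hours of acclimation with shade and water in 3 L pots of mangrove soil. Humid leaves from the same 3 seedlings (n = 3) supplied further levels. Stems and roots of 3 seedlings from an arid forest (n = 3 each), which were handled alike, supplied a second comparison with no library in common.

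Stem and root divide the work of a land plant. Stems hold the shoot's conducting and supporting tissues and are usually green when young, whereas roots take up water and ions. Mangrove roots also grow in salty, oxygen-poor mud, and species of Avicennia combine salt exclusion at the root with salt glands on the leaf.

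The humid stems had between 6.11 and 12.9 M reads (M for mega) and the humid roots between 3.07 and 9.05 M. A count of 0 therefore allowed a level of up to 0.491 CPM (counts per M reads) in the shallowest stem library and 0.979 CPM in the shallowest root library, for counting error only. Levels are scaled CPM and are not corrected for transcript length. Identifiers carry no gene names in the files, so the labelled organs could not be checked against marker genes. No function is given to any transcript for the same reason. Per the labels, 3 sets of 6 library names carry the same barcodes. If each set was 1 organ, sequencing pool and organ cannot be told apart here.

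Of 33377 transcripts tested, 5018 (15%) differed between humid stem and humid root by the quasi-likelihood test of edgeR at an adjusted p under 0.05. The calls were split almost evenly, 2451 (7.34% of those tested) being above in stem and 2567 (7.69%) in root. The median log2 fold change, stem over root, was 2.21 among transcripts higher in stem (quartiles 1.52 and 3.63) and -2.17 among those higher in root (quartiles -3.61 and -1.37). Over all tested transcripts the median was 0.12. All 3 stems lay above all 3 roots for 2341 of the transcripts called higher in stem, and all 3 stems lay below all 3 roots for 2425 of those called higher in root. Among all tested transcripts the same held for 19.9% and 17.7%, so separation of the libraries alone was far more frequent than a call. In these bulk libraries, fewer cells of a type and less RNA per cell cannot be told apart. The number of calls was 2580 without seedling 3 and 3081 without seedling 1.

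**Figure D1:**
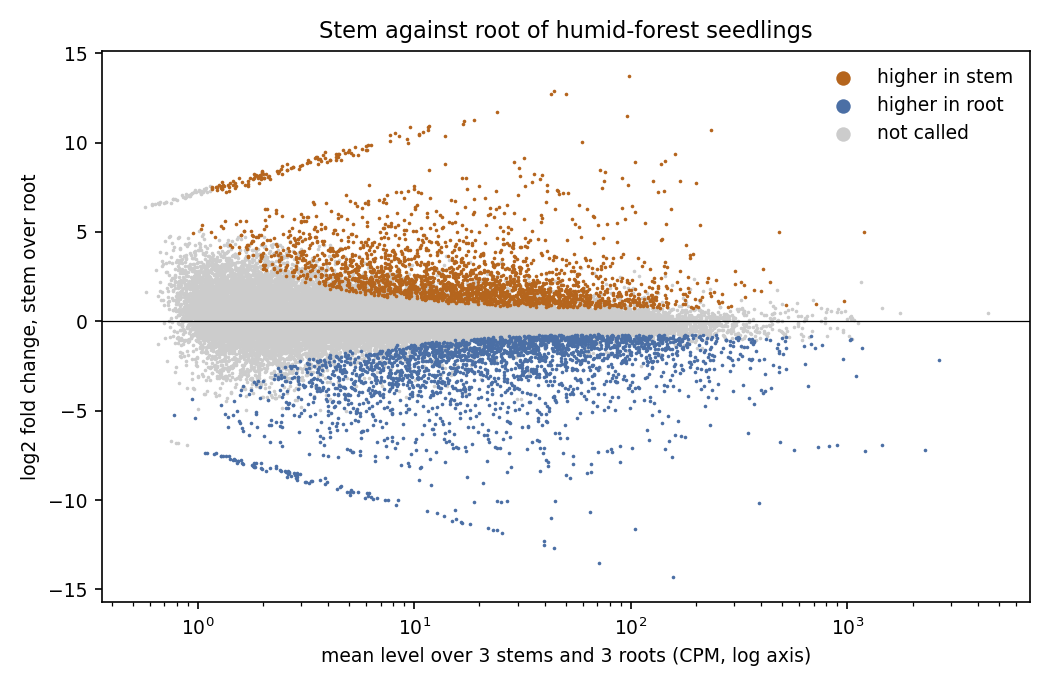
Log2 fold change of stem over root (vertical axis) against the mean level over the 6 humid stem and root libraries in CPM (horizontal log axis), with 1 point per tested transcript. The 2451 transcripts called higher in stem lie above 0 and the 2567 called higher in root below it, and the slanting outer lines are transcripts with no read in the other organ, whose fitted fold depends on the small count added by the fit.

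Differences ranged from under 2-fold to over 64-fold. In the stem direction, 119 calls were under 2-fold, 936 lay between 2 and 4-fold, 881 between 4 and 16-fold, 279 between 16 and 64-fold, and 236 were over 64-fold. In the root direction these bands held 228, 955, 857, 279 and 248 calls, so that calls under 2-fold made up 8.88% there and 4.86% in the stem direction. Of the calls over 64-fold, 133 in the stem direction and 98 in the root direction concerned transcripts with no read at all in the other organ.

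The directions were unequal among transcripts with many reads. Above a mean of 100 CPM, 508 of 1702 tested transcripts were called (29.8%), 149 higher in stem and 359 higher in root. Between 10 and 100 CPM there were 2981 calls, 1434 higher in stem and 1547 higher in root, but the larger side turned to stem with no filter on low counts (1742 and 1718), with 9 or 18 libraries (1288 and 1263, and 1055 and 1049) and without seedling 1 (1005 and 908). Between 1 and 10 CPM there were 1525 calls, with stem on the larger side at 867 against 658 for root. The median log2 fold change of all tested transcripts in these 3 bands was -0.24, -0.01 and 0.29. The root side stayed larger above 100 CPM under every alternative run, where stem held between 26.9% and 33.0% of the calls. In the lowest of the 3 bands the larger side changed to root without seedling 2, with 524 calls higher in stem and 584 higher in root.

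**Figure D2:**
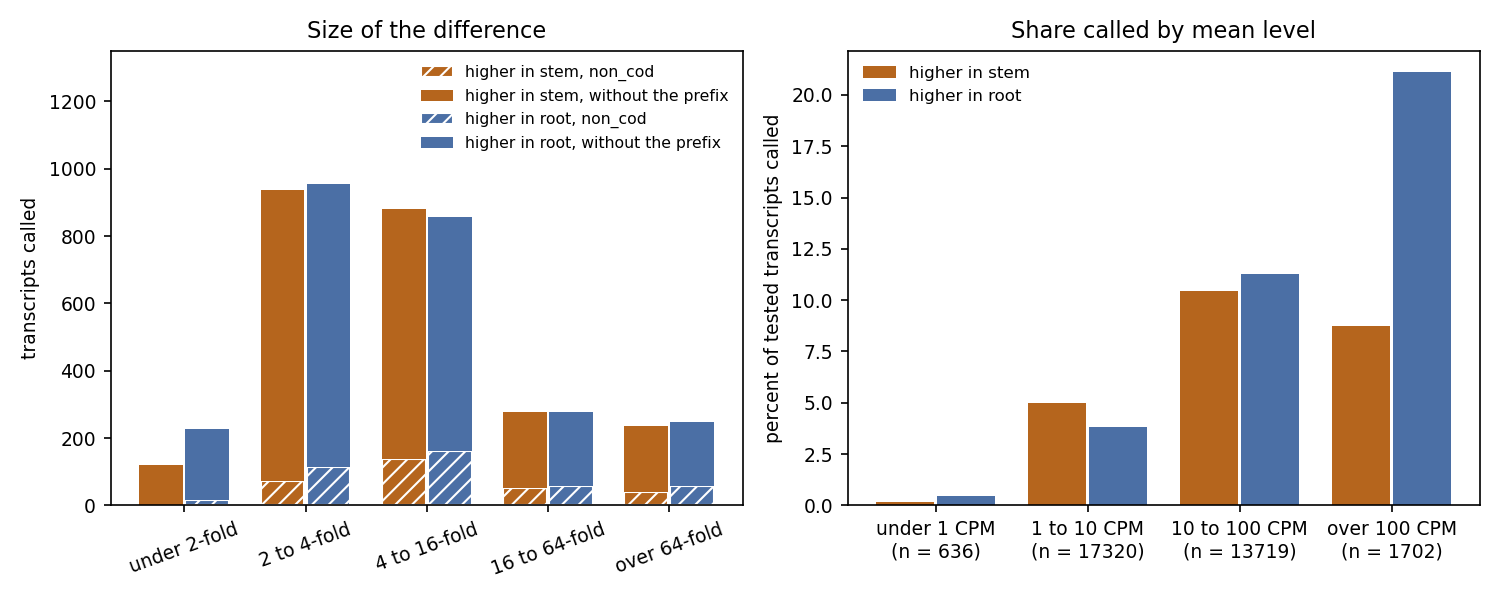
Left, number of called transcripts (vertical axis) by size of the difference, with bars for the stem and the root direction and the non_cod transcripts hatched. Right, percent of tested transcripts called in each direction by mean level in CPM, where root calls outnumber stem calls 359 to 149 above 100 CPM.

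The prefix non_cod, whose meaning the labels and files do not spell out, marked 8766 of the tested transcripts. Of these, 715 were called (8.16%), 305 higher in stem and 410 higher in root. Of the 24611 without the prefix, 4303 were called (17.5%), 2146 higher in stem and 2157 higher in root. Most non_cod transcripts had few reads, with a median level of 2.59 CPM against 13.7 CPM for the rest. Between 10 and 100 CPM the share called was 25.4% for the 1081 non_cod transcripts and 21.4% for the 12638 others. In that band root calls outnumbered stem calls among non_cod transcripts by 176 to 99, while the others divided into 1371 root and 1335 stem calls. Over all levels, the surplus of root calls among non_cod transcripts turned into a surplus of stem calls in the fits that added other libraries, at 404 stem calls against 394 root calls in the fit of 9 humid libraries and 335 against 284 in the fit of 18.

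The called transcripts took up a large part of the root reads. Transcripts called higher in root held 7.25 ± 0.21% of the reads in humid stems and 24.7 ± 3.68% in humid roots (SD, n = 3 each). Those called higher in stem held 14.6 ± 1.18% of the stem reads and 3.65 ± 0.62% of the root reads. These shares follow from the same counts as the calls and are given as a description. The root set was thus the heavier of the 2 in its own organ, and its share was highest in humid root 3, at 28.9% of the reads.

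Named transcripts were taken only from called ones with all 3 libraries of 1 organ above all 3 of the other. In each direction these were the transcript with the highest mean level in its higher organ and that with the largest fold among those with at least 10 reads in all 6 libraries. Their separation and folds chose them, and the folds are given with the fitted errors as a description. Ag_25390 had the highest mean stem level of the separated transcripts called higher in stem. Its level was 1072, 3776 and 2093 CPM in humid stems 1, 2 and 3, against 89.5, 142 and 20.4 CPM in humid roots 1, 2 and 3. The log2 fold change was 4.99 (edgeR adjusted p 0.00478, SE 0.64), and the rule itself required every stem to lie above every root. Leaves 1, 2 and 3 had 1519, 2749 and 1942 CPM, overlapping the stems. Seedling 3 had the lowest root and seedling 2 the highest stem and leaf.

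Under the same separation rule and read limit, Ag_42067 had the largest fold in the stem direction. It was at 119, 247 and 231 CPM in humid stems 1, 2 and 3, against 1.46, 4.33 and 1.67 CPM in the roots. The log2 fold change was 6.45 (edgeR adjusted p 0.000564, SE 0.34). This was the most even difference of the 4 named transcripts, with the smallest SE. The leaves, at 239, 282 and 583 CPM, exceeded the stem in each seedling.

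In the root direction, non_cod_Ag_45 had the most reads. It was at 101, 39.2 and 4.58 CPM in humid stems 1, 2 and 3, against 2555, 8285 and 2714 CPM in the roots, with a log2 fold change of -7.22 (edgeR adjusted p 0.00638, SE 1.01). Roots above stems in every seedling follow from the rule that chose it, but the stems themselves differed widely, seedling 3 being lowest. Leaves 1, 2 and 3 had 999.5, 3997 and 209 CPM, between stem and root in each seedling.

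Among separated transcripts with at least 10 reads in all 6 libraries, non_cod_Ag_286 had the largest fold in the root direction. It was at 38.5, 22.4 and 2.03 CPM in humid stems 1, 2 and 3, against 1696, 4527 and 989 CPM in the roots, with a log2 fold change of -7.26 (edgeR adjusted p 0.00269, SE 0.76). Its leaves had 509, 2804 and 95.7 CPM, in the same order over seedlings as for non_cod_Ag_45. All 4 named transcripts kept their humid call and direction under every alternative in which they were tested, with edgeR or DESeq2 adjusted p-values up to 0.021.

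**Figure D3:**
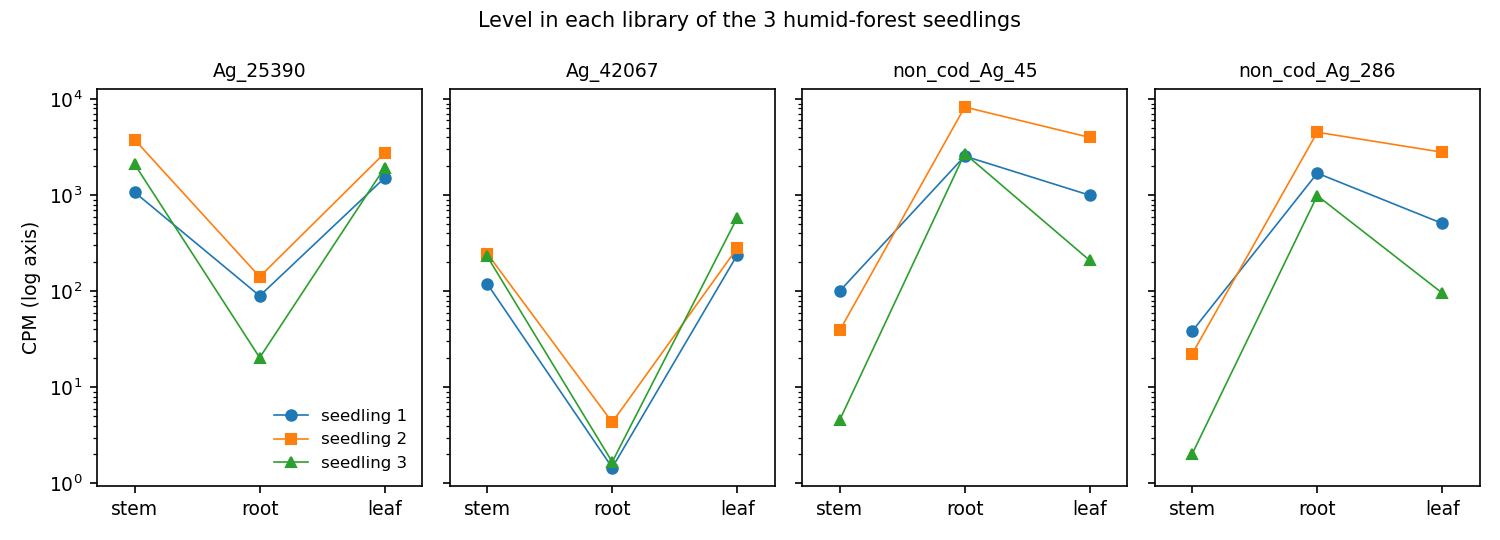
Level in CPM (vertical log axis) of the 4 named transcripts in stem, root and leaf, with 1 line per humid seedling. The first pair is low in root and high in stem and leaf, and the second pair is high in root, lower in leaf and lowest in stem in all 3 seedlings.

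Differences over 64-fold at a mean level above 100 CPM were few. In the stem direction 13 transcripts met both marks, none with the prefix non_cod, and together they held between 0.308% and 0.542% of the reads in each humid stem and at most 0.00395% in any humid root. In the root direction 21 did so, 7 of them non_cod, and they held at most 0.0434% of the reads in any stem, against 1.38%, 3.78% and 1.74% in roots 1, 2 and 3. Both named root transcripts were among the 21. Their ratio stayed between 1.43 and 2.74 over the 18 libraries, and whether they are separate transcripts was not tested. Leaf levels completed the picture. The 13 had median levels of 284 CPM in stem, 1.39 CPM in root and 667 CPM in leaf. The 21 had medians of 4.0 CPM in stem, 351 CPM in root and 22.1 CPM in leaf.

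Some transcripts had reads in only 1 of the 2 organs of the humid seedlings. With at least 10 reads in each stem and no read in any root there were 196 transcripts, 60 of them non_cod, at a median of 3.97 and a maximum of 244 CPM. Set against the limit of 3 reads over the 3 roots together, their median level was at least 24.8-fold higher in stem. With at least 10 reads in each root and no read in any stem there were 68, of which 20 were non_cod, at a median of 9.79 and a maximum of 361 CPM. Their median level was at least 94.9-fold higher in root. Stems had the greater total depth, so the 2 numbers rest on unequal limits, 0.160 CPM for the pooled roots and 0.103 CPM for the pooled stems. Reads in the leaf were counted as well. Of the 196, 123 were called, 103 had at least 10 reads in each leaf of the same seedlings and 7 had none in any leaf. Of the 68, 67 were called, 6 had at least 10 reads in each leaf and 23 had none. Over all tested transcripts, 7.34% were called higher in stem and 7.69% higher in root. The 2 groups were picked from all listed transcripts, tested or not, on the counts that the calls use. Their calls are therefore no further result, and members not called may not have been tested. No like share over all transcripts was taken for the leaf reads. In the arid seedlings, 9 of the 196 had no read in any root and 20 of the 68 had no read in any stem. At least 10 reads in each arid stem were found for 96 of the 196, and in each arid root for 10 of the 68. Arid roots had between 7.87 and 18.2 M reads and arid stems between 12.0 and 16.7 M. The groups were picked for absence in the humid libraries, and a single read ends an absence. No forest difference is therefore read from these counts.

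Leaf levels were then read for all called transcripts, since leaf libraries played no part in the fit. Transcripts called higher in stem had median levels of 25.3 CPM in stem, 5.14 CPM in root and 25.8 CPM in leaf. Those called higher in root had medians of 7.77 CPM in stem, 39.8 CPM in root and 14.1 CPM in leaf. In the stem set the leaf mean exceeded both other organs for 1133 transcripts (46.2%), lay between them for 1113 (45.4%) and was below both for 205 (8.36%). In the root set it exceeded both for 350 (13.6%), lay between for 1475 (57.5%) and was below both for 742 (28.9%). Over all tested transcripts these shares were 32.6%, 31.9% and 35.6%. A leaf value between the organs is the more likely the farther these are apart, and no test was made.

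**Figure D4:**
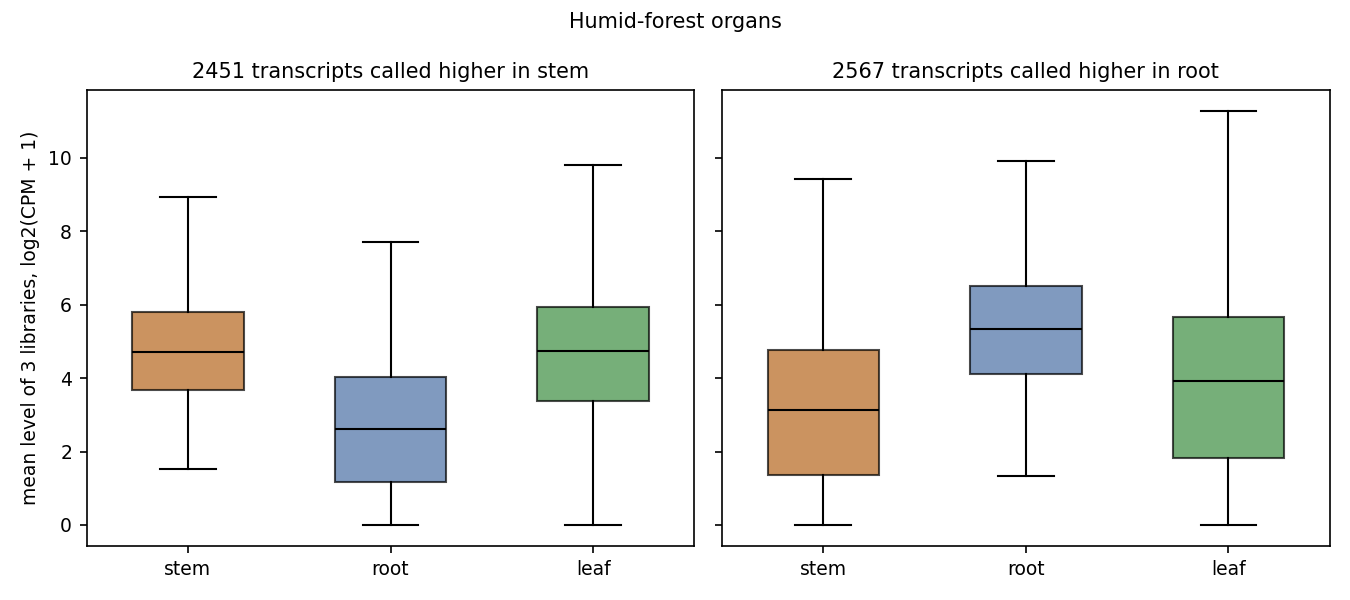
Mean level over 3 libraries, as log2(CPM + 1) on the vertical axis, in stem, root and leaf of the humid seedlings for the 2451 transcripts called higher in stem (left) and the 2567 called higher in root (right). Boxes show the median and quartiles over transcripts and whiskers reach 1.5 interquartile ranges; the leaf box resembles the stem box on the left and lies between stem and root on the right.

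The 100 transcripts with the largest share of arid leaf reads, a list that used neither humid stems nor humid roots, were read in the comparison. Of 98 tested, 38 were called on the stem side and 10 on the root side, at a median log2 fold change of 0.57. Over all tested transcripts, 7.34% were called on the stem side and 7.69% on the root side, and the median was 0.12. Above a mean of 100 CPM, 149 and 359 of 1702 were called on the stem and root side, at a median of -0.24. The list was not matched to others by level. Its transcripts held 6.81%, 5.43% and 6.59% of the reads in humid stems 1, 2 and 3 and 5.15%, 5.50% and 4.92% in humid roots 1, 2 and 3. Stem 2 lay inside the range of the roots, so the organs overlapped in this share (exact two-sided permutation p 0.2, adjusted p 0.25 over 5 measures of library make-up).

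The other 4 measures gave the following values. The percent of reads on non_cod transcripts was 9.17 ± 1.06% in humid stems and 9.89 ± 1.05% in humid roots (SD, n = 3 each, exact permutation p 0.5). The 100 most abundant transcripts of a library held 9.77 ± 0.85% of the stem reads and 11.2 ± 0.81% of the root reads (exact permutation p 0.2). Scaling factors averaged 1.05 ± 0.03 in stems and 0.95 ± 0.06 in roots, without overlap (exact permutation p 0.1). After thinning to 3065087 reads each, stems had a read on 41759, 41441 and 42270 transcripts and roots on 40236, 36279 and 38354. All stems exceeded all roots here (exact permutation p 0.1 without pairing, the smallest that 3 libraries against 3 allow). Adjusted p-values of these exact tests were 0.5 for the non_cod share and 0.25 for the other measures. Among the 100 most abundant transcripts, stem and root of 1 seedling had 52, 49 and 38 in common in seedlings 1, 2 and 3. Stem and root of different seedlings shared between 33 and 52, which overlapped these values. Pairs of stems shared between 59 and 72, and pairs of roots between 61 and 68.

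Agreement between the seedlings was read from their own ratios, which entered the test. All 3 seedlings had the higher value in stem for each of the 2451 transcripts called higher in stem, and in root for 2565 of the 2567 called higher in root. Over all 33377 tested, this held for 9884 and 8726 transcripts. A paired call nearly requires such agreement. Over 33377 transcripts, no independent replicates, the log2 ratios of stem to root of 2 seedlings had Pearson's r of 0.62 for seedlings 1 and 2, 0.72 for 1 and 3, and 0.71 for 2 and 3. Seedling 3 had the widest ratios, with an SD of 1.43 over transcripts against 1.16 and 1.19 in seedlings 1 and 2. A ratio of at least 4-fold in opposite directions in 2 seedlings occurred for 46 transcripts (0.138%). None of these was called, which a paired test on the same ratios makes all but certain.

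The arid seedlings served to read the humid calls in plants that had no part in them. Of the transcripts called higher in humid stem, 2387 were also tested in the arid forest, and 1872 of these (78.4%) had a positive log2 fold change of stem over root there. Of those called higher in humid root, 2368 were tested and 2021 (85.3%) had a negative one. Over all 31020 transcripts tested in both forests, 46.6% were positive and 53.4% negative. The median arid log2 fold change was 0.75 for the humid stem set and -0.94 for the humid root set, beside -0.07 for all. By seedling, arid stem exceeded arid root for 68.9%, 76.9% and 75.2% of the stem set in seedlings 1, 2 and 3, and for 14.5%, 28.9% and 27.0% of the root set.

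**Figure D5:**
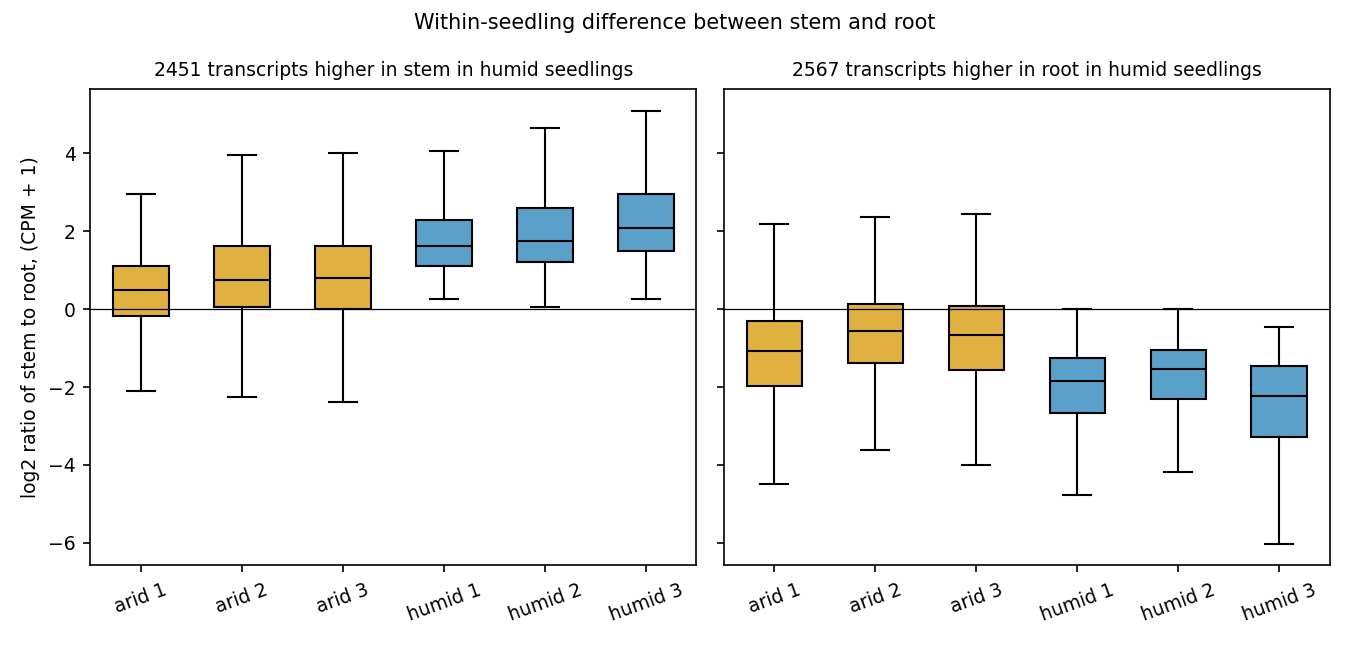
Log2 ratio of stem to root, from CPM + 1 (vertical axis), within each arid and each humid seedling for the 2451 transcripts called higher in humid stem (left) and the 2567 called higher in humid root (right). Boxes show medians and quartiles over transcripts and whiskers reach 1.5 interquartile ranges; the humid boxes hold the values that chose the sets, and the arid medians lie on the same side of 0, between 0.49 and 0.81 on the left and between -1.08 and -0.55 on the right.

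The same paired edgeR fit on the arid libraries called 404 of 34463 transcripts (1.17%), 241 higher in stem (0.699%) and 163 higher in root (0.473%). Of the 241, 227 were tested in the humid seedlings, where 80 were called in the same direction and 1 in the opposite one. Of the 163, 157 were tested there, 112 being called in the same direction and 6 in the opposite one. The humid calls over all transcripts tested there amounted to 7.34% on the stem side and 7.69% on the root side. Without pairing edgeR called no arid transcript (4148 had an unadjusted p under 0.05), whereas DESeq2 with pairing called 3605. Leaving out arid seedling 3 also ended all calls (2976 had an unadjusted p under 0.05). Without arid seedling 1 there were 1110 calls.

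The reads held by the 2 sets were measured in the arid libraries too. The humid stem set took 12.6%, 5.27% and 9.81% of the reads in arid roots 1, 2 and 3, beside 3.73%, 4.22% and 2.99% in humid roots 1, 2 and 3. The humid root set took 5.65%, 15.9% and 6.32% of the reads in arid stems 1, 2 and 3, beside 7.35%, 7.01% and 7.40% in the humid stems. Among the arid libraries, root 1 held the most of the stem set and stem 2 the most of the root set. The sets were chosen for their low levels in these humid libraries, so no forest difference is read from the shares. The part of arid root 1 and arid stem 2 in the arid calls was not tested beyond leaving out their seedlings.

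Whether stem and root differed by another amount in the arid than in the humid forest was tested in 1 paired edgeR fit of 12 libraries. It called 119 of 38864 transcripts (0.306%), the stem-over-root log2 fold change being above its humid value for 42 (0.108%) and below it for 77 (0.198%), and 5901 had an unadjusted p under 0.05. The median difference of all transcripts was -0.21, and it was -0.32 under upper quartile scaling. The count of calls shifted when a seedling was left out. It was 0 without humid seedling 2 (4939 had an unadjusted p under 0.05), 3 without humid seedling 3 and 143 without humid seedling 1. It was 20 without arid seedling 3, 38 without arid seedling 1 and 885 without arid seedling 2. Without pairing it was 1. Each fit without a seedling also held fewer libraries, and what moved the count was not tested.

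The named transcripts were read in the arid forest as well, having been chosen on the humid values. Ag_25390 had 1827, 289 and 3451 CPM in arid stems 1, 2 and 3 and 1564, 281 and 1284 CPM in the arid roots, a log2 fold change of 0.54 (edgeR adjusted p 0.571, SE 0.43). The stem exceeded the root in each arid seedling, by little in seedlings 1 and 2, and the 2 organs overlapped between seedlings. The difference of the log2 fold changes, arid minus humid, was -4.39 (edgeR adjusted p 0.0652, SE 0.81) and was not called. For Ag_42067 it was -3.23 (edgeR adjusted p 0.122, SE 0.78), with arid stems at 526, 50.3 and 409 CPM and arid roots at 164, 1.68 and 46.1 CPM. Its arid log2 fold change was 3.16 (edgeR adjusted p 0.0735, SE 0.64) and was not called, though the stem exceeded the root in each seedling. It was called without arid seedling 1 (edgeR adjusted p 0.0051).

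Both root transcripts were also called in the arid forest. There non_cod_Ag_45 had 160.5, 28.8 and 27.1 CPM in stems 1, 2 and 3 and 1264, 452 and 148 CPM in roots, a log2 fold change of -3.15 (edgeR adjusted p 0.0323, SE 0.42). The second, non_cod_Ag_286, had a log2 fold change of -3.15 as well (edgeR adjusted p 0.043, SE 0.51). In each arid seedling the root exceeded the stem for both. Without pairing their edgeR adjusted p-values were 0.289 and 0.316, and without arid seedling 3 they were 0.213 and 0.219, so these calls were lost. Their differences between forests were 4.16 (edgeR adjusted p 0.144, SE 1.08) and 4.20 (edgeR adjusted p 0.106, SE 0.94), and neither was called.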

How the data were processed

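Libraries were made from 0.5 µg of total RNA. The authors deposited raw counts, by transcript, of reads with 1 mapping place, per the table's name. Bowtie 0.12.2 and edgeR are named in the submitters' processing notes. Which program counted reads, and on which reference, is not stated in the labels or headers. The table and the single-library files held equal counts for 47821 transcripts, 17967 of them with the prefix non_cod. Without sequences, reads shared between near copies could not be assessed.

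Counts entered edgeR 4.0.16 (R 4.3.3) and its quasi-likelihood test. The fit held the 6 humid stem and root libraries, with organ and seedling as terms (2 residual degrees of freedom) and trimmed mean of M-values scaling. Transcripts were filtered by organ (minimum count 10, minimum total 15), and p-values were adjusted over all tested by the Benjamini-Hochberg method. The arid fit was built alike, and the fit of 12 libraries had seedling nested in forest. Every printed edgeR adjusted p is from 1 of these fits or from the alternative named beside it. The SE is the absolute log2 fold change, taken without the small count added by the fit, divided by the root of the F statistic. Printed log2 fold changes include that count. Levels are CPM scaled over all 18 libraries, so they may differ slightly from the fitted folds. Log2 ratios per seedling used a pseudocount of 1 CPM. Library make-up was compared by exact permutation in scipy 1.17.1, two-sided and without pairing by seedling, over 5 measures. Plots were drawn with matplotlib 3.10.9. DESeq2 1.42.0 served as an alternative. The tests were run first on simulated data.

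Pairing comes from the series' design text, by which the organs came from the same seedlings. Deviations from the group means correlated by 0.145, 0.249 and 0.150 between stem and root of humid seedlings 1, 2 and 3, and by 0.325, 0.393 and 0.178 in the arid ones. Replicate libraries differed by more than sampling noise (chi-square per degree of freedom at least 18.3), so none looked like a copy. The comparison and its groups of transcripts were chosen with earlier results of these data known. Named transcripts were limited to 2 in each direction, by the rule given with them, since identifiers carry no gene names.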

Additional observations from a re-analysis of the deposited data

Results flagged for a closer look

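The paired difference between stem and root was not the same in both forests for 119 of 38864 transcripts by edgeR, which is what drew attention to it. For 79 of the 119 the log2 fold changes of the forests had opposite signs. Of the 119, 63 were called higher in humid stem and 35 higher in humid root, beside 7.34% and 7.69% over all tested. The same humid counts entered both fits. Adjusted p-values of the 119 ran from 0.0045 to 0.0495, and 20 carried the prefix non_cod. The number depended on which seedlings were in the fit, from 0 without humid seedling 2 (4939 at an unadjusted p under 0.05, and 2409 calls by DESeq2 with all seedlings) to 885 without arid seedling 2.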

How the results depend on the processing

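The number of calls between humid stem and root, 5018, stayed within 1.5 times under each alternative with all 3 seedlings, from 3858 (all 18 libraries fitted) to 7095 (DESeq2). Their members shifted more, since between 3323 (all 18 libraries) and 5010 (DESeq2) of the 5018 were called again. Without the replicate block 4849 were called, of which 4219 were among the 5018. Leaving out a seedling gave between 2580 and 3628 calls, and 1975 transcripts were called in all 3 of these fits. In a paired fit, dropping 1 library drops its seedling. The 404 arid calls became 618 under upper quartile scaling, 1491 with no filter on low counts, 3605 by DESeq2, 1172 with all 18 libraries, 134 without non_cod transcripts, 0 without the replicate block, and between 0 and 1110 without a seedling. The 119 calls for the difference between forests became 311 with no filter, 2409 by DESeq2, 77 with all 18 libraries, 1 without the replicate block, and between 0 and 885 without a seedling. The cause of these shifts was not tested. Without a seedling, the stem-minus-root difference in the percent of non_cod reads ran from -1.40 to 0.409 points, against -0.721 with all. None of the 4 named transcripts changed its humid call or sign. Their arid values, read under the same alternatives after the data were seen, kept their sign, but the arid calls of non_cod_Ag_45 and non_cod_Ag_286 were lost without the replicate block and without arid seedling 3. Ag_42067 gained an arid call with no filter, by DESeq2 and without arid seedling 1. For the measures of library make-up the block changed no call: sign flips within seedlings gave p-values of at least 0.25, the smallest that 3 pairs allow.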

Other observations

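The most read root transcript, non_cod_Ag_45, belonged to a small group that moved in step through the whole series. This group was picked after its values were seen and gets no test. The level of non_cod_Ag_45 spanned 1810-fold over the 18 libraries, from 4.58 to 8285 CPM. Its ratio to non_cod_Ag_286 moved only between 1.43 and 2.74. Among 14857 other transcripts with a read in every library and on average 10 CPM or more in humid stems and roots, 6 kept their ratio to it within 10-fold, 5 of them non_cod, while the next kept it within 50.5-fold and the median was 1837-fold. All 6 were called higher in humid root, with log2 fold changes between -7.26 and -6.77, beside 7.69% called higher in root over all tested. These calls largely follow from the rule, since non_cod_Ag_45 was itself chosen among the root calls. Together, the 7 held 0.0356%, 0.017% and 0.00209% of the reads in humid stems 1, 2 and 3, against 0.884%, 3.26% and 0.776% in humid roots. Leaves of the same seedlings held 0.249%, 1.56% and 0.0613%. Seedling 2 was highest in root and leaf but not in stem. Whether these identifiers are pieces of 1 transcript or near copies that share reads was not tested for want of their sequences.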
